A study of Homo sapiens with 6 samples.

Results

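The genes described here are 10 members of the MHC class II antigen presentation pathway, taken by symbol from a table of normalized read counts of 34114 genes: HLA-DRA, HLA-DRB1, HLA-DPA1, HLA-DPB1, HLA-DQA1, HLA-DQB1, HLA-DMA, HLA-DMB, CD74 and CIITA. Each symbol had 1 row, and all 10 passed the filter for testing, a normalized count that averages at least 10. The study profiled messenger RNA of 3 human acute myeloid leukemia lines, MOLM-14, NOMO-1 and SKM-1, at 72 h after transfection with an shRNA. The control group carried a scrambled shRNA and the knockdown group an shRNA against NCAM1, the adhesion molecule also known as CD56, which the series links to leukemogenesis and drug resistance. Every library therefore came from shRNA-transfected cells, and each line gave 1 control library and 1 knockdown library. Untransfected cells were not analysed here.

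MHC class II molecules are alpha and beta chain pairs (HLA-DR, HLA-DP and HLA-DQ) that show peptides from endocytosed proteins to CD4+ T cells. CD74, the invariant chain, binds new pairs in the endoplasmic reticulum, fills their groove and escorts them to endosomes, where cathepsins trim it. HLA-DM, the pair of HLA-DMA and HLA-DMB, then exchanges the remaining CD74 fragment for peptide, and HLA-DO (HLA-DOA and HLA-DOB) restrains HLA-DM. CIITA is the coactivator that switches the whole set on. It does not bind DNA itself but docks on RFX, CREB and NF-Y proteins that sit on the X and Y boxes of class II promoters. Class II expression is typical of professional antigen-presenting cells, and HLA-DR is also a common surface marker of myeloid leukemia blasts.

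The promoters are shown first because CIITA acts through them. Windows of 300 bases (250 before to 50 after the annotated start) came from RefSeq, build GRCh38.p14, and held 9 entries for 8 of the 10 members. HLA-DRA and CIITA had no entry. An X-like word, AGNNACNGA, and a Y-box word, ATTGG, were searched on both strands. These letters were chosen after the members' promoters had been read. Both words on 1 strand, with 20 to 30 bases between them, occurred in the promoters of 4 members, where the X word began 79 to 121 bases before the start. In the following lines, each 5′ to 3′ on the gene's strand, capitals mark the words.
HLA-DRB1, chr6:32589878-32589939, minus strand: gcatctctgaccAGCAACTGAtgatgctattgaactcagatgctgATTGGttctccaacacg
HLA-DQA1, chr6:32637292-32637354, plus strand: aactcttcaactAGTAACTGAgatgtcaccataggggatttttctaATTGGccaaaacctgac
HLA-DQB1, chr6:32666729-32666790, minus strand: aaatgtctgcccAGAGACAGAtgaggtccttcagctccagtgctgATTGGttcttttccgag
HLA-DMA, chr6:32953160-32953222, minus strand: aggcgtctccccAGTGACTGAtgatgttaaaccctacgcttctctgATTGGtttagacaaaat

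The spacing was 24 bases in HLA-DRB1 and HLA-DQB1 and 25 bases in HLA-DQA1 and HLA-DMA. Among all 35116 promoters, 55 (0.157%) held such a pair, 15.3% held the X-like word and 34.6% held the Y-box word. Of the members' 9 entries, 6 held the X-like word, 7 the Y-box word and 4 the pair. The pair also stood in 2 of 5 promoters of other class II genes, HLA-DRB5 and HLA-DOA, which are printed for comparison with HLA-DRB1.
HLA-DRB5, chr6:32530361-32530422, minus strand: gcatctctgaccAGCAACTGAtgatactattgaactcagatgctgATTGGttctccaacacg
HLA-DOA, chr6:33009642-33009704, minus strand: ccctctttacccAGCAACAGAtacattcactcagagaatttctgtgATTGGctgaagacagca

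HLA-DPB1 and CD74 held only the Y-box word, and so did HLA-DOB, a class II gene whose order of lines differed from that of most members. HLA-DPB1 and HLA-DOB each had it on both strands. Capitals again mark the word or its complement, and a missing X-like word says only that those letters are not in the window.
HLA-DPB1, chr6:33075869-33075931, plus strand: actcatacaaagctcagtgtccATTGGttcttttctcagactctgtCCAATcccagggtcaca
HLA-DOB, chr6:32817060-32817122, minus strand: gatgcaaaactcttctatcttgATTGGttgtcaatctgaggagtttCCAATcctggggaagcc
CD74, chr5:150412947-150413009, minus strand: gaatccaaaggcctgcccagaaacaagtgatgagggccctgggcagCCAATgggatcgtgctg

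**Figure D1:**
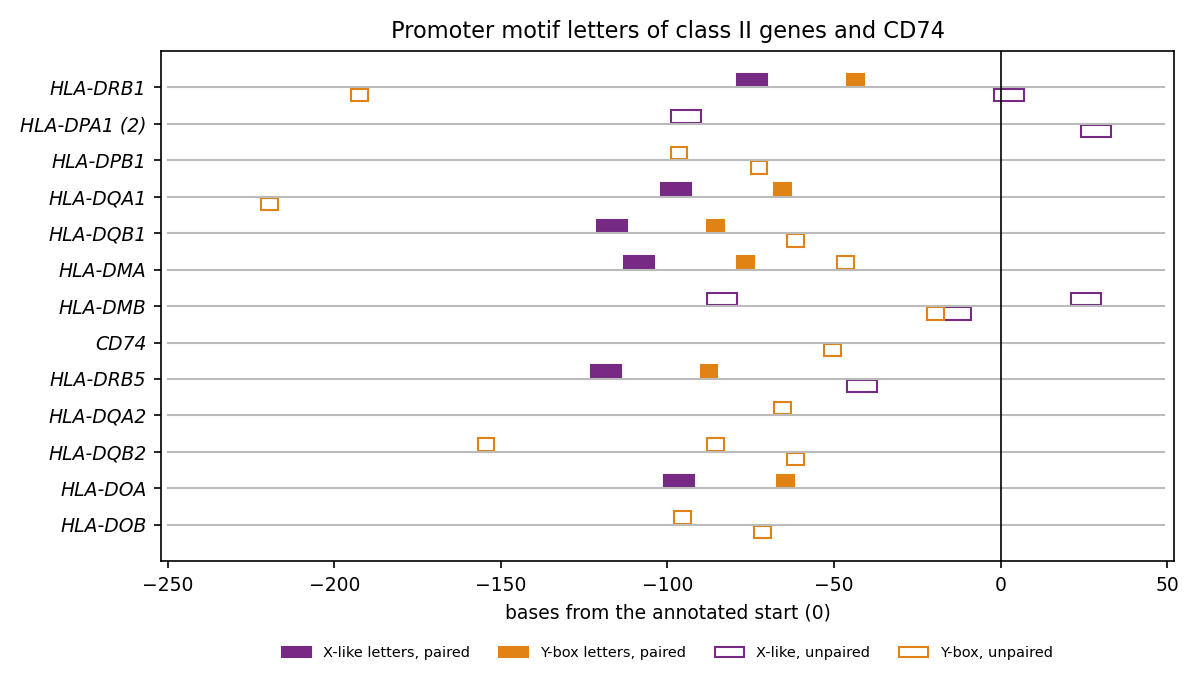
Positions of the X-like and Y-box words in the promoter windows of class II genes and CD74, in bases from the annotated start, with 1 row per RefSeq promoter entry that holds a word. Filled bars mark the words of a pair on 1 strand, and open bars mark the other words. Pairs were seen in HLA-DRB1, HLA-DQA1, HLA-DQB1, HLA-DMA, HLA-DRB5 and HLA-DOA, with 24 or 25 bases between the words.

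Libraries held 41916991 to 47688779 gene-assigned reads. NCAM1 itself was lower in the knockdown library of each line, by 3.17-fold in MOLM-14, 3.73-fold in NOMO-1 and 124-fold in SKM-1, so the depth of knockdown differed between lines. Myeloid markers were present in every library: PTPRC (CD45) lay between 14053 and 23654 normalized counts and CD33 between 1764 and 3837. Several lymphoid markers were also counted, and they are given beside the line differences. Values are normalized read counts unless another scale is named. Tests used limma on log2(normalized count + 1) across all 19575 tested genes with Benjamini-Hochberg adjustment. With 1 library per line and condition, a ratio within a line has no replicate check and carries only an exact conditional 95% interval for counting error.

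The members were expressed in a steep order, NOMO-1 over MOLM-14 over SKM-1. They took 0.150% and 0.142% of all reads in the control and knockdown libraries of NOMO-1, 0.0172% and 0.0243% in MOLM-14, and 0.00442% and 0.00542% in SKM-1. Between NOMO-1 and MOLM-14, 6 of 10 members were called higher in NOMO-1 (limma, adjusted p under 0.05 and at least 2-fold), where 8.01% of all genes were. Between SKM-1 and MOLM-14, 6 of 10 were called lower in SKM-1, where 7.79% of all genes were; without the filter on low counts 3 of the 6 remained called (HLA-DQB1, CD74 and HLA-DRB1). All 10 were called lower in SKM-1 than in NOMO-1, where 7.78% of all genes were. The median log2 difference of the members was 2.66, -2.15 and -5.53 in these 3 contrasts, and that of all genes was 0.010, 0.019 and 0.0046. In 7 members both NOMO-1 libraries lay above both MOLM-14 libraries, which lay above both SKM-1 libraries. The share of all genes with such an order was not counted, so whether 7 of 10 is unusual cannot be said.

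In these contrasts the control and knockdown libraries of a line serve as its replicates, with a knockdown term shared by the lines. The labels do not say whether they come from separate cultures started independently, so the p-values measure only the spread between these libraries. Many of the calls depend on having both libraries of NOMO-1 or of MOLM-14. Leaving out a SKM-1 library lowered no count of members called, though the lone library is then assumed to vary like the other lines. Leaving out the control or the knockdown library of NOMO-1 left 0 members and 0 genes called in either NOMO-1 contrast, although 2869 to 3159 genes then had an unadjusted p under 0.05 in limma, among them 6 members against MOLM-14 and 10 against SKM-1. Leaving out 1 library of MOLM-14 left 3 members called in NOMO-1 against MOLM-14. For SKM-1 against MOLM-14 the count was 2 without the MOLM-14 control library, and 0 without the MOLM-14 knockdown library or without either NOMO-1 library.

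**Figure D2:**
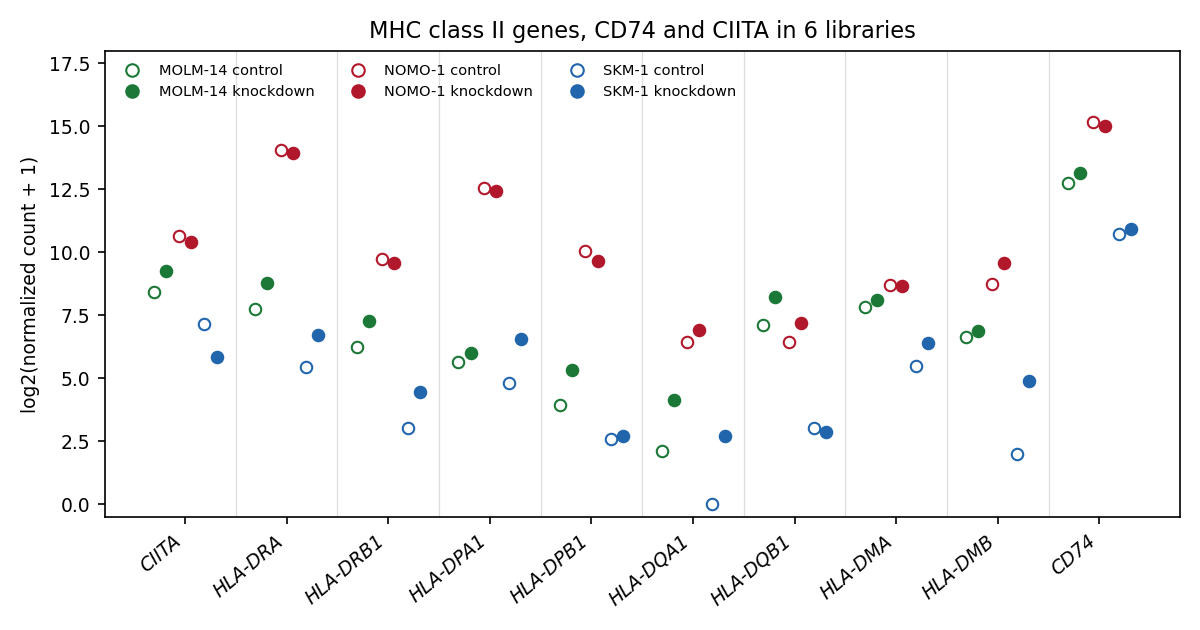
Levels of the 10 members on the log2(normalized count + 1) scale, with 1 point per library, colour for the line and marker for control or knockdown. NOMO-1 points lie above MOLM-14 points for 9 of 10 members, the exception being HLA-DQB1, and SKM-1 points lie lowest for 8 of 10. The share of all genes ordered in this way was not counted.

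CIITA (ENSG00000179583), the coactivator of the set, had normalized counts of 345 in the control and 614 in the knockdown library of MOLM-14, 1621 and 1376 in NOMO-1, and 140.2 and 56.9 in SKM-1. The lines did not overlap and stood in the order NOMO-1, MOLM-14, SKM-1. On the log2 scale, SKM-1 was below NOMO-1 by -4.05 (SE 0.55, adjusted p = 0.0142). Neither neighbouring step passed the limma test: NOMO-1 against MOLM-14 gave 1.70 (adjusted p = 0.116) and SKM-1 against MOLM-14 gave -2.35 (adjusted p = 0.0512). DESeq2 called both (adjusted p = 0.0378 and 0.00091). Its gene overlaps DEXI on the opposite strand in the GRCh38 annotation, and DEXI lay between 8.26 and 36.8.

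HLA-DRA (ENSG00000204287), the DR alpha chain, had 214 and 446 in the control and knockdown libraries of MOLM-14, 17209 and 15675 in NOMO-1, and 42.7 and 104.7 in SKM-1. Both NOMO-1 libraries stood far above the other 4. The control library of NOMO-1 was 80.4-fold above that of MOLM-14 and 403-fold above that of SKM-1. NOMO-1 exceeded MOLM-14 by 5.73 on the log2 scale (SE 0.42, adjusted p = 0.00444, limma) and SKM-1 was below MOLM-14 by -2.19 (adjusted p = 0.0325), the latter lost without the filter (0.0622) or the variance trend (0.0548).

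HLA-DRB1 (ENSG00000196126), the main DR beta chain gene, had 74.7 and 153 in MOLM-14, 852 and 770 in NOMO-1, and 7.11 and 21.1 in SKM-1. Its order matched that of HLA-DRA but its range was narrower: the NOMO-1 control library was 11.4-fold above that of MOLM-14 and 120-fold above that of SKM-1. Limma called NOMO-1 higher than MOLM-14 (log2 2.91, adjusted p = 0.0293, lost without the filter at 0.0521) and SKM-1 lower than MOLM-14 (log2 -3.01, adjusted p = 0.0237).

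The 2 DR chains were not counted in a fixed ratio. Per kilobase of transcript, HLA-DRA over HLA-DRB1 was 2.75 and 2.79 in the libraries of MOLM-14, 19.4 and 19.5 in those of NOMO-1, and 5.76 and 4.76 in those of SKM-1. The libraries of 1 line lay close together and the lines lay apart. Other DRB loci took part of the reads: HLA-DRB1 held 93.1% and 94.2% of the reads of HLA-DRB1, HLA-DRB5 and HLA-DRB6 in MOLM-14, but 52.4% and 48.9% in NOMO-1. HLA-DRB5 (23.2% and 23.4%) and the pseudogene HLA-DRB6 (24.3% and 27.7%) held the rest in NOMO-1. With these 3 DRB loci summed, HLA-DRA per kilobase was 10.2 and 9.62 times the sum in NOMO-1. It was 2.56 and 2.63 times the sum in MOLM-14. In SKM-1 it was 5.06 and 3.24 times the sum, where the sums rest on 8 and 34 reads. HLA-DRB3 and HLA-DRB4 were not among the counted genes, so the sum leaves out any reads of theirs. DRB genes are highly polymorphic and near-identical to each other, so reads from an allele unlike the reference can be lost or split between loci. The part of such mapping in these ratios was not tested.

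HLA-DPA1 (ENSG00000231389), the DP alpha chain, had 49.1 and 62.6 in MOLM-14, 6092 and 5469 in NOMO-1, and 27.4 and 92.7 in SKM-1. NOMO-1 stood apart from both other lines, which overlapped. Its log2 difference between NOMO-1 and MOLM-14 was the largest among the members, at 6.68 (SE 0.53, adjusted p = 0.00503, limma). SKM-1 against MOLM-14 gave -0.13 (adjusted p = 0.891), and this difference changed sign when the control library of MOLM-14 (0.090) or of SKM-1 (0.68) was left out.

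HLA-DPB1 (ENSG00000223865), the DP beta chain, had 14.5 and 39.7 in MOLM-14, 1076 and 799 in NOMO-1, and 5.08 and 5.51 in SKM-1. The lines did not overlap. NOMO-1 exceeded MOLM-14 by 5.21 on the log2 scale (adjusted p = 0.00971, limma), and SKM-1 against MOLM-14 gave -2.00 (adjusted p = 0.0812; DESeq2 adjusted p = 0.0157). HLA-DPA1 and HLA-DPB1 overlap on opposite strands, and without a stated strand setting their shared reads cannot be told apart. Per kilobase, HLA-DPA1 over HLA-DPB1 was 5.18 and 6.27 in NOMO-1, 3.10 and 1.45 in MOLM-14, and 4.94 and 15.4 in SKM-1, where HLA-DPB1 had 5 and 6 reads.

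HLA-DQA1 (ENSG00000196735), the DQ alpha chain, had 3.35 and 16.7 in MOLM-14, 86.9 and 119.5 in NOMO-1, and 0 and 5.51 in SKM-1. It had the lowest mean normalized count of the members, with 0 to 16 reads in the libraries of MOLM-14 and SKM-1. It passed the filter only through its NOMO-1 counts, which favours a higher level in NOMO-1. NOMO-1 was called higher than MOLM-14 (log2 3.55, SE 0.71, adjusted p = 0.0396, limma). This call is lost with a pseudocount of 0.5 (adjusted p = 0.0642), without the filter (0.0678), after quantile normalization (0.0539) and in edgeR (0.0664).

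HLA-DQB1 (ENSG00000179344), the DQ beta chain, broke the order of the other chains. It had 137 and 299.6 in MOLM-14, 86.9 and 147.8 in NOMO-1, and 7.11 and 6.43 in SKM-1. MOLM-14 and NOMO-1 overlapped, with a log2 difference of -0.83 (adjusted p = 0.310, limma), and SKM-1 was below MOLM-14 by -4.71 (adjusted p = 0.00722). The 2 DQ chains were uneven in MOLM-14 and near-even in NOMO-1: per kilobase HLA-DQB1 was 37.6 and 16.5 times HLA-DQA1 in MOLM-14, against 0.918 and 1.13 times in NOMO-1. DQ genes are highly polymorphic too, and the part of uneven allele mapping was not tested.

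HLA-DMA (ENSG00000204257), the DM alpha chain, varied least between the lines. It had 226 and 279 in MOLM-14, 421 and 401 in NOMO-1, and 43.7 and 84.5 in SKM-1. NOMO-1 against MOLM-14 gave a log2 difference of 0.71 (adjusted p = 0.284, limma), and SKM-1 was below MOLM-14 by -2.03 (adjusted p = 0.0311, lost without the filter at 0.0548). In the GRCh38 annotation it overlaps BRD2 on the opposite strand, and BRD2 stood at 7196 to 18825, so reads of the 2 genes cannot be told apart if the counting ignored strand.

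HLA-DMB (ENSG00000242574), the DM beta chain, had 99.3 and 115.9 in MOLM-14, 433.6 and 766 in NOMO-1, and 3.05 and 28.5 in SKM-1. The lines did not overlap. SKM-1 was below MOLM-14 by -3.31 on the log2 scale (adjusted p = 0.0437, limma), a call lost without the filter (adjusted p = 0.0797), with a filter at a mean of 50 (0.0507), without the variance trend (0.0629) and in edgeR (0.0674). NOMO-1 against MOLM-14 gave 2.42 (adjusted p = 0.100), a difference called by DESeq2 (0.0118), on the authors' transformed values (0.0372) and with a pseudocount of 8 (0.0417). Per kilobase, HLA-DMA over HLA-DMB was 2.84 and 2.99 in MOLM-14, 1.21 and 0.652 in NOMO-1, and 17.8 and 3.69 in SKM-1.

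CD74 (ENSG00000019582), the invariant chain, had the highest count per kilobase in every library among the 9 members with a transcript length used here. It had normalized counts of 6884 and 9075 in MOLM-14, 36632 and 33277 in NOMO-1, and 1686 and 1969 in SKM-1. The lines did not overlap, and both steps passed the limma test, NOMO-1 above MOLM-14 by 2.14 (SE 0.22, adjusted p = 0.00815) and SKM-1 below MOLM-14 by -2.12 (adjusted p = 0.00745). CD74 made up 81.7% to 85.9% of the members' summed normalized count in MOLM-14 and SKM-1, and 56.6% to 56.8% in NOMO-1, where HLA-DRA made up 26.7%. Per kilobase, CD74 over HLA-DRA was 2.78 and 2.77 in NOMO-1, 41.95 and 26.6 in MOLM-14, and 51.5 and 24.6 in SKM-1. SKM-1 thus kept 1686 or more normalized counts of CD74 at HLA-DRA counts of 42.7 and 104.7.

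Of 10 other class II loci looked for, 7 were in the table and 5 could be tested. HLA-DRB3, HLA-DRB4 and HLA-DPA2 were not among the counted genes. HLA-DRB5 had 5.58 and 9.40 in MOLM-14, 378 and 369 in NOMO-1, and 1.02 and 5.51 in SKM-1. HLA-DRB6, HLA-DQA2 and HLA-DQB2 had 0 reads in both MOLM-14 libraries and lay at 396 and 437, 79.3 and 110, and 29.3 and 30.1 in NOMO-1. Against a floor of 3 reads per library, the NOMO-1 counts were at least 118-fold, 23.7-fold and 8.75-fold higher in these 3 genes. The part of uneven allele mapping, or of a locus missing from a line, in these counts was not tested. In limma, 4 of the 5 tested loci were called higher in NOMO-1 than in MOLM-14, where 8.01% of all genes were. All 5 were called lower in SKM-1 than in NOMO-1, where 7.78% of all genes were. HLA-DRB5, HLA-DRB6, HLA-DQA2 and HLA-DQB2 passed the filter only through their NOMO-1 counts. Their direction in these contrasts was thus largely set by the filter, and these counts lend no support to the order of the members. HLA-DOA, the DO alpha chain, stayed below the filter, with 12.3 and 26.5 in NOMO-1 and at most 1.04 elsewhere. The pseudogene HLA-DPB2 lay at 6.69 or below.

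HLA-DOB, the DO beta chain, ran the other way. It had 454 and 525 in MOLM-14, 15.1 and 14.6 in NOMO-1, and 3.05 and 2.75 in SKM-1. MOLM-14 stood 33.0-fold above NOMO-1 in the mean of the 2 libraries, with a log2 difference of -4.95 for NOMO-1 against MOLM-14 (adjusted p = 0.00585, limma). SKM-1 was below MOLM-14 by -6.97 (adjusted p = 0.00252). Per kilobase, HLA-DOB over HLA-DMB was 4.47 and 4.43 in MOLM-14 and 0.0341 and 0.0186 in NOMO-1. HLA-DOB is a class II gene of the B cell lineage, and PAX5, the B lineage transcription factor, had 1194 and 1032 in MOLM-14 and at most 3.78 in the other 4 libraries. EBF1, another B cell marker, was also highest in MOLM-14, with 146 and 266. It had 10.4 and 21.9 in NOMO-1 and 5.08 and 79.0 in SKM-1. MS4A1 and CR2 went the other way: MS4A1 had 0 and 5.22 in MOLM-14 against 144 and 1988 in NOMO-1, and CR2 had 0 and 0 against 1690 and 243. Limma called 4 of 9 tested B cell markers higher and 1 lower in NOMO-1 than in MOLM-14, where 8.01% of all genes were higher. The part of B cell genes in the level of HLA-DOB was not tested.

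Genes that lie among or beside the class II genes gave a comparison within the same stretch of chromosome 6. Of 18 such neighbours, 16 were tested, and their median log2 difference was 0.023 for NOMO-1 against MOLM-14, -0.30 for SKM-1 against MOLM-14 and -0.093 for SKM-1 against NOMO-1. Limma called 0 higher and 2 lower (HSD17B8 and RPS18) in the first contrast, 1 lower (RPS18) in the second and 1 higher (HSD17B8) in the third. Of all 19575 genes it called 2596, 3103 and 2684 in either direction. With 16 genes, these few calls cannot be told apart from that share. The class I presentation genes, 14 tested, had medians of 0.64, 0.51 and -0.20. Of these, HLA-F and B2M were called higher in NOMO-1 than in MOLM-14, and HLA-B, HLA-F and B2M were among those higher in SKM-1 than in MOLM-14. Between SKM-1 and NOMO-1, 0 were called by limma, edgeR or DESeq2 (5, 2 and 5 at an unadjusted p under 0.05). With 14 genes, 0 calls cannot be told apart from the share of all genes called. HLA-B was thus higher in SKM-1 than in MOLM-14 (log2 1.04, adjusted p = 0.0257) where 6 class II pathway members were lower; its call is lost without the variance trend (adjusted p = 0.0783) and, under the 2-fold limit, on the authors' transformed values (0.0247).

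The genes coding for the proteins on which CIITA docks were compared in the same way. The 7 promoter complex genes were RFX5, RFXANK, RFXAP, NFYA, NFYB, NFYC and CREB1. Limma called 0 of them in each of the 3 line contrasts, with 1, 2 and 0 at an unadjusted p under 0.05. The same counts came from edgeR and DESeq2. Of all 19575 genes, limma called 2596 in NOMO-1 against MOLM-14, 3103 in SKM-1 against MOLM-14 and 2684 in SKM-1 against NOMO-1. With 7 genes, 0 calls cannot be told apart from that share. RFX5, a subunit of the X-box factor RFX, had 3524 and 3935 in MOLM-14, 3433 and 3609 in NOMO-1, and 6807 and 2639 in SKM-1. Of 14 inducers, coactivators and repressors of CIITA, 1 was called lower in NOMO-1 than in MOLM-14 and 1 lower in SKM-1 than in MOLM-14. The first was PRDM1 (Blimp-1, a repressor of CIITA), with 679 and 656 in MOLM-14, 32.1 and 133 in NOMO-1, and 130 and 338 in SKM-1 (log2 -3.33, adjusted p = 0.0278). The second was IRF8, a myeloid and B cell transcription factor, with 36219 and 22927 in MOLM-14, 7512 and 6601 in NOMO-1, and 2005 and 111 in SKM-1 (log2 -5.93, adjusted p = 0.0246), a call lost in edgeR (adjusted p = 0.0502) and without the filter (0.0543). The call of PRDM1 is lost without the filter (0.0521).

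Of 8 tested processing genes, limma called 2 higher and 2 lower in NOMO-1 than in MOLM-14 (median log2 difference -0.51), 0 in SKM-1 against MOLM-14 (2 at an unadjusted p under 0.05; edgeR called 0 and DESeq2 2; median 0.91) and 2 higher and 0 lower in SKM-1 against NOMO-1 (median 1.09). Of all 19575 genes, limma called 2596, 3103 and 2684 in these 3 contrasts, in either direction. In NOMO-1 against MOLM-14, CTSL, the endosomal protease cathepsin L, was lower (log2 -6.87, adjusted p = 0.00478, limma), with 2 and 1 reads in NOMO-1. CTSH, cathepsin H, was higher in that contrast (log2 3.97, adjusted p = 0.0283, lost without the filter at 0.0544). CTSS, the cathepsin best known for the late trimming of CD74, had 6258 and 7033 in MOLM-14, 2868 and 2888 in NOMO-1, and 4563 and 9429 in SKM-1. MARCH1, a ubiquitin ligase that removes class II from the cell surface, was lower in SKM-1 than in MOLM-14 (log2 -1.27, adjusted p = 0.0334), the only call among 3 turnover genes in the 3 limma contrasts, lost without the filter (0.0543) or the variance trend (0.0545).

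Markers of B cells, dendritic cells, monocytes and T cells were unevenly spread between the lines. The summed normalized count of 10 B cell markers was 1484 and 1421 in MOLM-14, 2784 and 3216 in NOMO-1, and 837 and 402 in SKM-1, and 0 to 2 of the 10 were at 0 reads in a library. Among them, CR2 and MS4A1 were high in NOMO-1 (1690 and 243; 144 and 1988) and MS4A1 had 0 reads in SKM-1. The sum of 10 dendritic cell markers was 821 and 779 in MOLM-14, 1735 and 1981 in NOMO-1, and 265 and 364 in SKM-1. CCR7 carried most of it in NOMO-1, with 1068 and 1161. The sum of 7 monocyte markers was 1319 and 700.5 in MOLM-14, 1270 and 773 in NOMO-1, and 2431 and 8289 in SKM-1. FCN1 (1045 and 5936) and CSF1R (1367 and 2069) carried it in SKM-1. VCAN went the other way, with 700 and 203 in MOLM-14 and 2.03 and 1.84 in SKM-1. The sum of 8 T cell markers was 78.1 and 50.1, 4160 and 3347, and 8.13 and 59.7, carried in NOMO-1 by CD3D with 3789 and 2961. Between NOMO-1 and MOLM-14, limma called 4 higher and 1 lower of 9 tested B cell markers. It called 2 of 5 tested dendritic cell markers and 4 of 5 tested T cell markers higher. Of all 19575 genes, 8.01% were called higher and 1029 lower. CD3D, CD3E, CD3G, TRAT1, XCR1, CLEC9A, MS4A1 and CR2 passed the filter only through NOMO-1. The counts called higher in NOMO-1 are thus partly set by the filter. The part of these genes in the line differences of the members was not tested, and in bulk libraries fewer cells of a type and less RNA per cell cannot be told apart.

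Genes whose profile over the 6 libraries was nearest to that of HLA-DRA were sought among 12528 genes with a mean of 50 or more, by the root mean square difference of centred log2 values, where 0 is identity. Nearest were KIAA0125 (0.46), NCR2 (0.48), FGFR2 (0.52), HLA-DRB5 (0.56), FBXL16 (0.62), HGF (0.63), CHRNA6 (0.69), IL32 (0.81), ZNF683 (0.82) and SIGLEC14 (0.82). Among the members, HLA-DPB1 lay at 0.47, HLA-DPA1 at 0.88, HLA-DRB1 at 1.19, HLA-DMB at 1.496, CD74 at 1.74, CIITA at 2.01, HLA-DMA at 2.42 and HLA-DQB1 at 2.74. The 6 libraries come from 3 lines, so a gene that is high in NOMO-1 and low elsewhere scores as near, and 15 genes that are no members were nearer than HLA-DPA1.

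The second question was how the members differed between knockdown and control. Limma with the line as a block called 0 of 10 members, and 0% of the 19575 genes tested (0 genes, with 877 at an unadjusted p under 0.05). Of edgeR's 863 genes with an unadjusted p under 0.05, 0 were called after adjustment and 0 were members, and the 43 genes that DESeq2 called include 0 members. In limma, 1 member (HLA-DQA1) had an unadjusted p under 0.05. The mean log2 ratio over the 3 lines was above 0 for 9 of 10 members, with a median of 0.61 against -0.0072 for all genes. The SD between lines exceeded the size of the mean for 9 of the 10 members, among them HLA-DRA at 0.73 ± 0.76 (SD, n = 3 lines) and HLA-DRB1 at 0.78 ± 0.83.

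HLA-DQA1 and HLA-DMB were the members higher in the knockdown library of all 3 lines. HLA-DQA1 had a mean log2 ratio of 1.73 ± 1.15 (SD over the lines), with an adjusted p of 0.779 in limma, resting on 3 against 16 reads in MOLM-14 and 0 against 6 in SKM-1. HLA-DMB had 1.30 ± 1.39, resting on 3 against 31 reads in SKM-1, and its mean was 0.52 without SKM-1. In an exact two-sided sign-flip permutation test both gave p = 0.25, the smallest that 3 lines allow.

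The other members had a ratio above 1 in at least 1 line and below 1 in another, which for HLA-DQB1 in SKM-1 and HLA-DMA in NOMO-1 lay within counting error. HLA-DPA1 had a mean log2 ratio of 0.64 ± 0.97, HLA-DPB1 0.35 ± 0.94, HLA-DQB1 0.58 ± 0.64, HLA-DMA 0.39 ± 0.51 and CD74 0.16 ± 0.27 (SD, n = 3 lines). CIITA was the member with a mean below 0, at -0.23 ± 1.06. Its mean changed sign to 0.30 without SKM-1, and that of HLA-DPB1 changed sign to -0.17 without MOLM-14.

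**Figure D3:**
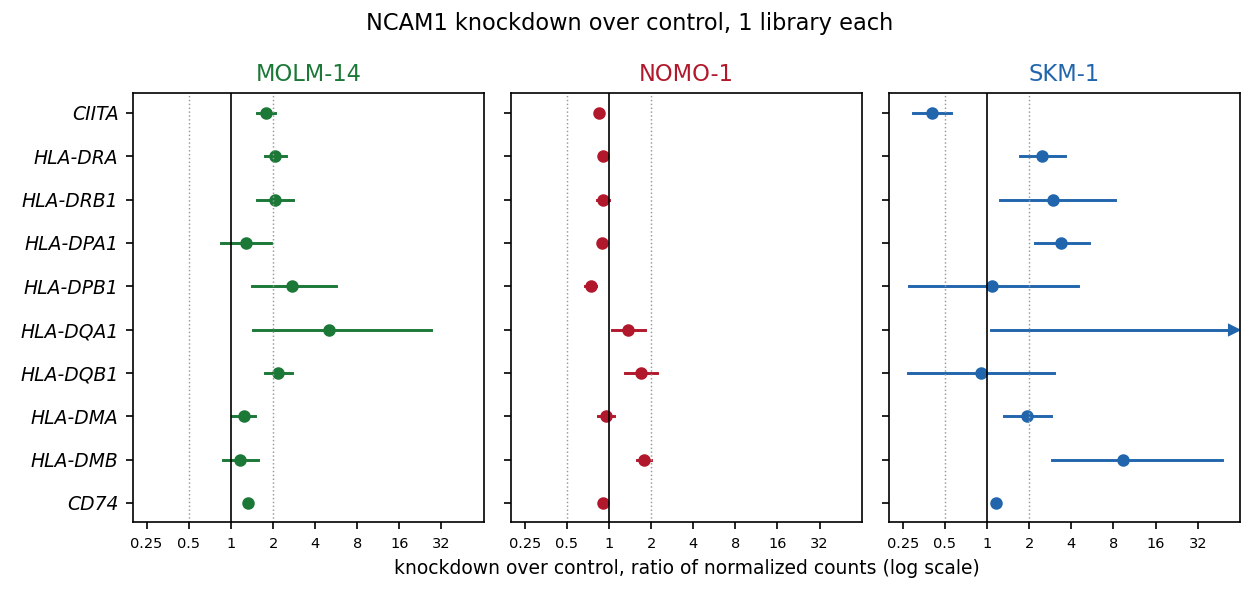
Ratio of knockdown over control for each member in each line on a log axis, with exact 95% intervals for counting error (1 library per condition). Points lie right of 1 for all 10 members in MOLM-14, close to 1 for most in NOMO-1, and from 0.406 for CIITA to 9.34 for HLA-DMB in SKM-1, where HLA-DQA1 has a control count of 0.

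In MOLM-14 all 10 members were higher in the knockdown library, with a median log2 ratio of 0.93 against 0 for all genes. Of 7 members with a normalized count of 100 or more in 1 library of the line, 3 were at least 2-fold higher and 0 lower, where 0.777% of such genes were at least 2-fold higher and 1.43% lower. HLA-DRA was 2.08-fold higher (95% interval 1.75 to 2.48), HLA-DRB1 2.05-fold (1.53 to 2.78) and HLA-DQB1 2.18-fold (1.76 to 2.72). HLA-DRB1 and HLA-DMB reached the minimum of 100 only in the knockdown library. CIITA was 1.78-fold higher (1.55 to 2.05) and CD74 1.32-fold (1.28 to 1.36). HLA-DPB1 was 2.74-fold higher (1.43 to 5.60) at 13 and 38 reads and HLA-DQA1 4.99-fold (1.43 to 26.7), while the intervals of HLA-DPA1 (0.851 to 1.93) and HLA-DMB (0.875 to 1.56) included 1.

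In NOMO-1, where the members were most abundant, 7 were lower and 3 higher in the knockdown library, with a median log2 ratio of -0.14 against -0.00027 for all genes. All 10 had a count of 100 or more, HLA-DQA1 and HLA-DQB1 only in the knockdown library. Of these 10, 0 were at least 2-fold higher and 0 lower, against 2.08% and 5.67% of such genes. HLA-DRA was at 0.911 of its control (0.892 to 0.930), CD74 at 0.908 (0.896 to 0.922), CIITA at 0.849 (0.792 to 0.910) and HLA-DPB1 at 0.743 (0.679 to 0.812). HLA-DMB was 1.77-fold higher (1.58 to 1.98), HLA-DQB1 1.70-fold (1.31 to 2.22) and HLA-DQA1 1.38-fold (1.05 to 1.82). The chains of 1 heterodimer thus had ratios on opposite sides of 1 for DM, where HLA-DMA was at 0.953 (0.833 to 1.09).

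In SKM-1, 8 members were higher and 2 lower in the knockdown library, with a median log2 ratio of 1.11 against -0.012 for all genes. Only HLA-DRA, CD74 and CIITA had a count of 100 or more there. HLA-DRA was at least 2-fold higher, through its knockdown library alone, and CIITA at least 2-fold lower, against 14% and 14.9% of such genes. SKM-1 had more such genes in both directions than MOLM-14 or NOMO-1. HLA-DRA was 2.45-fold higher (1.71 to 3.58), HLA-DPA1 3.38-fold (2.19 to 5.38), HLA-DRB1 2.97-fold (1.23 to 8.19, 7 against 23 reads), HLA-DMA 1.93-fold (1.33 to 2.85), HLA-DMB 9.34-fold (2.91 to 47.7) and CD74 1.17-fold (1.10 to 1.25). HLA-DQA1, with 0 reads in the control, was at least 1.81-fold higher against a floor of 3 reads. HLA-DPB1 (0.276 to 4.49) and HLA-DQB1 (0.270 to 3.02) rested on 5 to 7 reads per library, and no difference was detectable at this depth.

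CIITA and some of its targets therefore differed in direction in SKM-1 and in NOMO-1. In SKM-1, CIITA stood at 0.406 of its control (0.296 to 0.552, 138 against 62 reads). HLA-DRA, HLA-DRB1, HLA-DPA1, HLA-DMA, HLA-DMB and CD74 stood above theirs, with intervals that exclude 1. In MOLM-14 CIITA and these genes were all on the higher side. In NOMO-1 CIITA was lower together with HLA-DRA, HLA-DRB1, HLA-DPA1, HLA-DPB1 and CD74. There HLA-DMB (1.77), HLA-DQB1 (1.70) and HLA-DQA1 (1.38) stood above their controls, with intervals that exclude 1, opposite to CIITA (0.849). The CIITA count sums all of its transcripts, and its separate promoters cannot be told apart in gene counts.

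**Figure D4:**
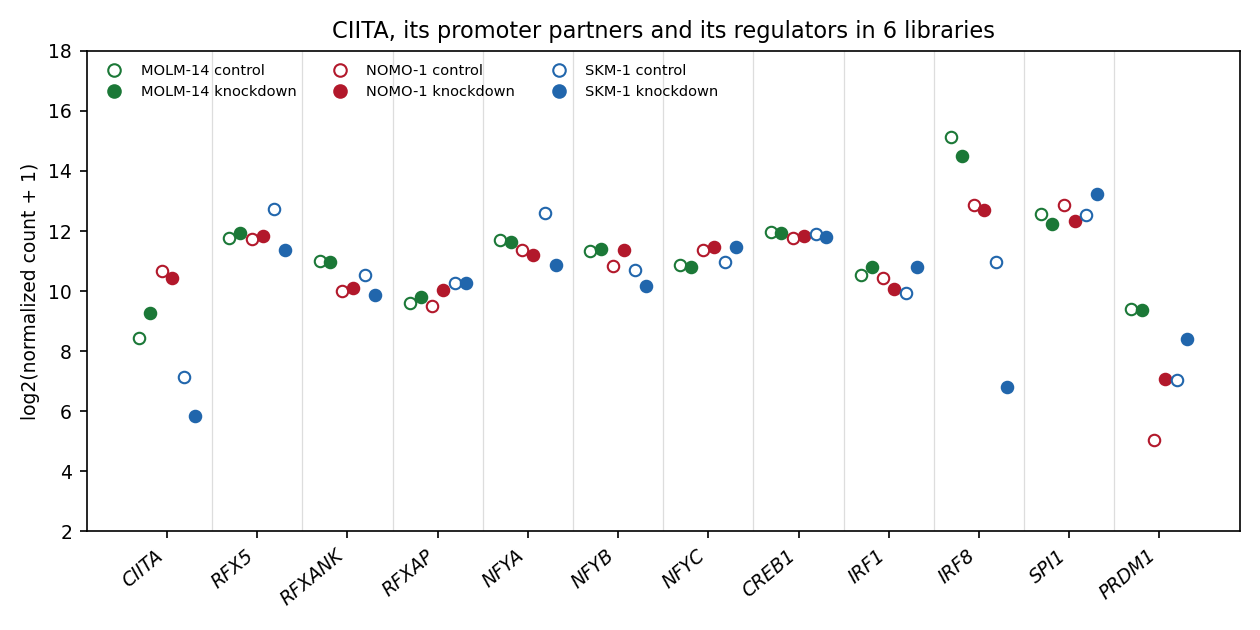
CIITA, the promoter complex genes and regulators of CIITA on the log2(normalized count + 1) scale, with 1 point per library, colour for the line and marker for control or knockdown. RFX5 and NFYA lie close together across libraries except for SKM-1, where control and knockdown differ (6807 and 2639 for RFX5), and IRF8 spans 36219 in the MOLM-14 control to 111 in the SKM-1 knockdown.

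In the single lines, of 7 promoter complex genes, 0 differed by 2-fold or more in MOLM-14 or NOMO-1 and 2 were at least 2-fold lower in SKM-1, where 14.9% of all such genes were. RFX5 stood at 0.388 of its control there (0.371 to 0.405), and NFYA, a subunit of the Y-box factor NF-Y, went from 6153 to 1878 (0.305, interval 0.290 to 0.321). Of 14 CIITA regulators, 3 were at least 2-fold higher and 1 lower in SKM-1, near the 14% and 14.9% of all such genes. IRF8 stood at 0.0554 of its control there (0.0457 to 0.0666), from 2005 to 111. IRF4, a lymphoid and dendritic cell transcription factor, went from 10.2 to 116, which is 11.4-fold (5.99 to 24.3). Over the lines, limma, edgeR and DESeq2 each called 0 genes of either list for knockdown, with 0, 0 and 2 at an unadjusted p under 0.05, the 2 being CIITA regulators.

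Partner genes at the cell surface and in the endosome were also uneven in SKM-1. CD86, a costimulatory ligand for T cells, went from 52.8 to 9816 in SKM-1, a 186-fold ratio (95% interval 142 to 249), from 667 to 1670 in NOMO-1 and from 426 to 353 in MOLM-14 (adjusted p = 0.779 over the lines, limma). CXCR4, a chemokine receptor that can pair with CD74, went from 483 to 3510 in SKM-1, and was lower in the knockdown libraries of MOLM-14 (0.806) and NOMO-1 (0.518). CTSD, cathepsin D, went from 1610 to 9393 in SKM-1. Of 8 tested processing genes in SKM-1, 4 were at least 2-fold higher and 2 lower, against the 14% and 14.9% of all genes. The sum of 7 monocyte markers was 2431 in the control and 8289 in the knockdown library of that line, while the sum of the myeloid leukemia markers went from 776390 to 64008, carried by MPO (myeloperoxidase) at 728824 and 6166. The part of such differences in the SKM-1 ratios of the members was not tested.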

How the data were processed

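Messenger RNA was measured in SKM-1, MOLM-14 and NOMO-1 at 72 h, with 1 library per line for each of 2 groups, scrambled control shRNA and NCAM1 knockdown. The signal values that the authors deposited are gene counts scaled with a size factor for each library. They also deposited log2 values, and which transformation gave these is not stated. Per the submitters' processing notes, bcl2fastq 1.8.4, HTSeq 0.6.1p1, STAR and DESeq2 1.12.4 were used, with genome build hg19. No label or file names the annotation, the strand setting or how reads shared by near-identical loci were treated.

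The normalized counts in each column proved to be whole multiples of a common step, so that 100% of them became whole reads (tolerance 0.001). The depth so recovered was 41916991 to 47688779 reads per library. Ratios within a line have exact conditional 95% intervals on these reads, and 0 reads were replaced by a floor of 3, which cover counting error only. The members and gene lists were chosen with earlier results of these data known.

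Tests were run in limma 3.58.1 (R 4.3.3; lmFit, then eBayes with a variance trend; two-sided) after taking log2(normalized count + 1), with terms for line and knockdown, 2 residual and 2.81 prior degrees of freedom, on 19575 genes whose mean reached 10. P-values were Benjamini-Hochberg adjusted over these genes. Knockdown was called at an adjusted p under 0.05, and line contrasts also needed 2-fold. Differences on this scale are too small for low genes. Control and knockdown were paired by line; within MOLM-14, NOMO-1 and SKM-1 the 2 libraries' deviations from their group means had correlations of 0.850, 0.863 and 0.710 over genes. Alternatives were other pseudocounts (0.5, 8) and filters (none, a mean of 50), scaling to total counts, quantile normalization, use of the authors' transformed values, eBayes variants, edgeR 4.0.16 and DESeq2 1.42.0 on recovered reads, no block, and leaving out lines or libraries. The last of these was added after the data were seen. The fits were tested on simulated data.

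Counts per kilobase used the longest principal transcript of GENCODE 29 on GRCh38, another build, which served only for length, order and overlap. No length was used for CIITA. All members are named. From each other list, counts past the test and up to 4 genes by knockdown p or level are named, and every other class II locus. The genes nearest to HLA-DRA leave out pseudogenes, clone names and sex-linked transcripts of the X inactivation centre or the Y chromosome. Further genes were named after their values were seen. They were PAX5, EBF1, CR2, MS4A1, CD3D, CD3E, CD3G, TRAT1, XCR1, CLEC9A, CCR7, FCN1, CSF1R, VCAN, TAP2, BRD2 and DEXI, and the few called genes of a list.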

Additional observations from a re-analysis of the deposited data

Results flagged for a closer look

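For 6 members the knockdown to control ratio lay above 1 in 1 line and below 1 in another, with both counting intervals excluding 1, a difference that was not tested because each line has 1 library per condition. Each value below is the larger log2 ratio minus the smaller. It was 1.41 for HLA-DRA, 1.59 for HLA-DRB1 and 1.88 for HLA-DPA1, SKM-1 minus NOMO-1. For HLA-DPB1 and CD74, MOLM-14 minus NOMO-1, it was 1.82 and 0.54. CIITA, MOLM-14 minus SKM-1, had the largest of the 6, at 2.12. NCAM1 itself was lower by 3.17-fold in MOLM-14, 3.73-fold in NOMO-1 and 124-fold in SKM-1, and the part of knockdown depth in these differences was not tested.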

How the results depend on the processing

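Counts of members and genes called stayed within 1.5 times under 94 of 96 alternatives other than leaving out samples. The exceptions were 3 members (6 in the main analysis) in SKM-1 against MOLM-14 without the filter, when 34114 genes were tested, and 43 genes (0) called for knockdown by DESeq2; the cause of the latter was not tested. Without the replicate block by line, limma called 0 genes for knockdown, with 141 at an unadjusted p under 0.05, and the block changed no call. Leaving out 1 line at a time called 0 members and 0 genes for knockdown each time. Leaving out 1 library at a time gave 0 to 8 members for NOMO-1 against MOLM-14, 0 to 7 for SKM-1 against MOLM-14 and 0 to 10 for SKM-1 against NOMO-1. It gave 0 to 4884, 636 to 5947 and 0 to 5038 genes; a lone sample is then assumed to vary like the other lines, with 1 residual degree of freedom. Leaving out 1 line moved the knockdown mean of CIITA from -0.76 to 0.30 (reversed without SKM-1) and that of HLA-DPB1 from -0.17 (reversed, without MOLM-14) to 0.75. Leaving out 1 library moved SKM-1 against MOLM-14 for HLA-DPA1 from -0.94 to 0.68, reversed without the control library of MOLM-14 (0.090) or of SKM-1 (0.68). Of single members' tests, 457 kept direction and call, 7 gained and 12 lost a call under the other alternatives. Total-count scaling moved the median of all genes in NOMO-1 against MOLM-14 to 0.14, below the members' median of 2.66. Depth limits SKM-1, where HLA-DQA1, HLA-DPB1, HLA-DQB1, HLA-DRB1 and HLA-DMB had 0 to 7 control reads.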
